A study of Rattus norvegicus with 12 samples.

Results

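The cytosolic ribosomal protein genes are the genes whose products, with ribosomal RNA, build the ribosomes of the cytoplasm. They were taken by symbol from the array annotation: every gene named Rps or Rpl (small or large subunit) with a number, the stalk genes Rplp0, Rplp1 and Rplp2, and Rpsa, with no use of measured values. The rule found 68 genes among 14324 genes, namely 26 of the small subunit, 39 of the large subunit and 3 of the stalk. They were represented on the array by 248 probe sets (groups of probes summarised to 1 value), and for each gene the probe set of highest mean over all arrays stood for the gene. The aortas came from male Fisher 344 rats aged 1 to 2 months, an inbred strain, with no genetic change named in the labels. Rings were embedded in a gel of collagen or of fibrin (the clotting protein), kept in serum-free EBM medium, and given 10 ng/ml recombinant rat TNF-alpha, an inflammatory cytokine, or nothing. RNA was taken on day 2. The untreated and treated rings in collagen (collagen control, collagen TNF) and in fibrin (fibrin control, fibrin TNF) made 4 groups of 3 samples, and each sample pooled 4 to 6 ring cultures. The design asks what TNF does in each matrix and how the matrices differ without and with TNF. Whole rings hold smooth muscle, endothelial, fibroblast and immune cells together, so fewer cells of a type and less RNA per cell cannot be told apart.

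Ribosomal proteins are made in nearly equal amounts in growing cells, and their genes are among the most highly expressed of any cell. Many of their mRNAs begin with a C followed by a run of pyrimidines (C or T in the DNA), the TOP motif, through which the growth-sensing kinase complex mTORC1, acting on the RNA-binding protein LARP1, controls how much of them is translated and kept. Elongation factors and several other translation genes have mRNAs of the same kind. The array reports mRNA abundance alone and does not report translation.

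The start sites of a few genes, all but Rpl31 described below, are shown because a pyrimidine run there is common in the family. Some of the genes have it and others do not. Each line is 30 bases in RefSeq's assembly GRCr8, from 12 bases before the annotated transcription start to 18 bases from it. It is written in the direction of the gene. Capitals mark the longest run of pyrimidines, or the first where runs are equally long, as in Rpl39. Rps13, Rpl35a, Rpl10a, Rps24, Rpl31 and Rpl27a have runs of 8 bases or more, Rpl39 has a run of 7, and Rpl36, Rps3 and Rps6 have shorter ones. Rps13 lies at chr1:180009643-180009672 (minus strand), Rpl35a at chr11:81235004-81235033 (minus), Rpl10a at chr20:6390521-6390550 (plus), Rps24 at chr16:96505-96534 (plus), Rpl31 at chr9:49143099-49143128 (plus) and Rpl27a at chr1:172974561-172974590 (plus). Rpl39 lies at chrX:121195879-121195908 (minus), Rpl36 at chr9:1533768-1533797 (plus), Rps3 at chr1:163195759-163195788 (minus) and Rps6 at chr5:106420523-106420552 (minus).
Rps13: gtttcctacctcgTTCTCTCTTTgcttcca
Rpl35a: ggtcttgCCTTCCTCTTTCCgccatcttgg
Rpl10a: accttctgCCTTCTTTTCCggttcccgcag
Rps24: gcggTCCTCTTTTCCTCCTTTacagctcgg
Rpl31: caatccctcgcgCCTTTCCTTTCCaacttg
Rpl27a: gacttggtgggCTCCTCCCTCTTTCTTTTC
Rpl39: tctaatcgcgTTCTTCCggcctgtcctttc
Rpl36: TCCggccgccatcggaaagctgcaggtaag
Rps3: CTTTCagcggcgcgcggcagcaagatggcg
Rps6: gCCTCCTaggcggtcggctgtgtcaagatg

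A promoter entry was found for 58 of the 68 genes. A pyrimidine run of 8 bases or more stood on the gene's strand in 38 of these 58 windows (65.5%), against 10.8% of all 27457 promoters in the table, and on the other strand in 1.72% of the ribosomal windows against 13.0% of all. The 5 letters CTTTC, searched on each strand and part of many of those runs, were on the gene's strand in 41.4% of the ribosomal windows and in 3.53% of all, and on the other strand in 1.72% and 3.75%. Over the full 300 bases of each entry, CTTCCGG was found on either strand in 31.0% of the ribosomal entries and 9.22% of all, and TATAAA in 10.3% and 14.3%. The mitochondrial ribosomal protein genes, whose products work in another ribosome, had the pyrimidine run in 9.26% of their windows and CTTCCGG in 33.3% of their entries. Genes of ribosome assembly and ribosomal RNA synthesis had the run in 10.2% and CTTCCGG in 50.9%, so CTTCCGG is not particular to this family. Of 13 other genes with mRNAs of the TOP kind, 61.5% had the run. These matches depend on where RefSeq places the start, so the short run of a gene such as Rps6 says only that these letters are not in this window.

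Deposited values ranged from 1.44 to 14.07 on a log2 scale, with 0 missing. The median of an array was 5.94 to 5.98 in the 6 collagen arrays and 5.89 to 5.93 in the 6 fibrin arrays, a small shift that bears on every comparison of the matrices. The ribosomal genes sat near the top of the signal range: their mean levels ran from 6.14 (Rps27) to 13.4, with a median of 12.29 against 7.07 for all genes, and 62 of the 68 were among the 10% of genes with the highest means (10.02 or more). These are probe signals, so their order among genes is no order of abundance. Ribosomal protein genes have many near-identical processed copies in the genome, so a probe set can also read such copies, and each gene is uncertain to that extent. Among the markers of vessel cells, Myh11 (smooth muscle myosin) had a mean level of 10.4, Cdh5 (endothelial cadherin) 8.09, Dcn (decorin, a fibroblast product) 13.51 and Cd68 (macrophages) 9.91, while Cd3e (T cells) was at 4.04. Within groups the ribosomal genes varied little, with a median standard deviation (SD) of 0.07 against 0.12 for all genes. Arrays 1 and 3 of fibrin TNF stood apart: single ribosomal genes deviated there from their own mean by -0.39 to 0.34 and by -0.41 to 0.40, so results on that group rest on a wider spread.

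In collagen without TNF the ribosomal genes were at their highest as a set. The collagen control group had the highest mean of the 4 groups for 64 of the 68 genes (94.1%, against 30.9% of all genes), and the single highest of the 12 arrays was a collagen control array for 55 (80.9%, against 29.8%). The lowest group mean was that of fibrin control for 56 genes, of fibrin TNF for 9 and of collagen TNF for 3. The median deviation of the 68 genes from their own means was 0.14, 0.13 and 0.10 on the 3 collagen control arrays, -0.05, 0.00 and 0.00 on the collagen TNF arrays, -0.12, -0.10 and -0.05 on the fibrin control arrays, and -0.05, -0.02 and 0.02 on the fibrin TNF arrays. The same median over all genes stayed between -0.01 and 0.01 on every array. No array of another group reached a collagen control array in this summary. The arrays of the other 3 groups ran from -0.12 to 0.02, and the lowest collagen control array was at 0.10.

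**Figure D1:**
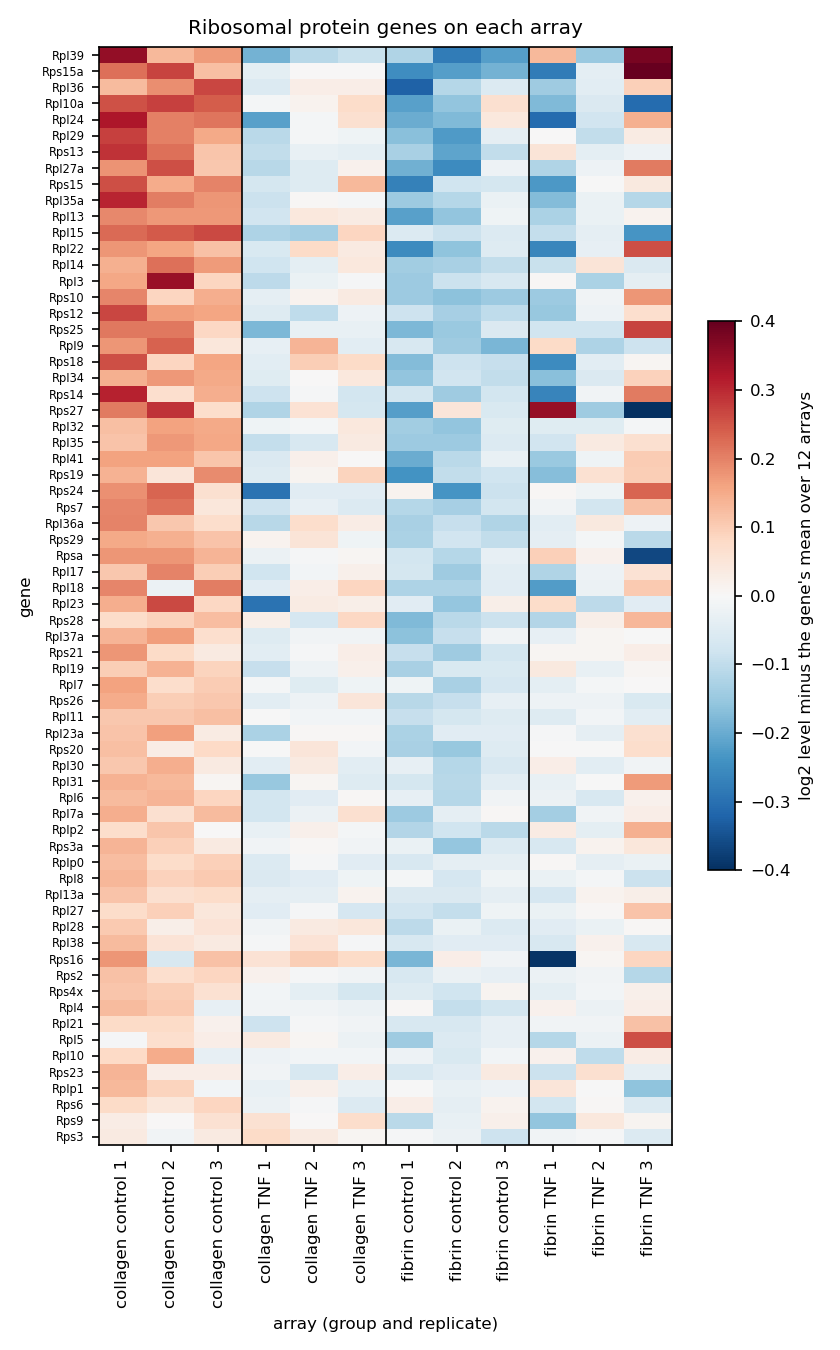
Each row is 1 of the 68 ribosomal protein genes, ordered by the fibrin minus collagen difference without TNF, and each column 1 of the 12 arrays; colour gives the log2 level minus the gene's mean over the 12 arrays. The 3 collagen control columns are red for nearly every gene (67, 64 and 64 of the 68 above their own mean), and the fibrin control columns are blue (4, 2 and 8 above).

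The largest comparison set fibrin against collagen in rings without TNF. The difference was below 0 for 68 of 68 ribosomal genes, with a median of -0.22 (log2), which is -14.2% on the linear scale, and a range from -0.42 to -0.06. Of them, 26 passed the threshold (limma, Benjamini-Hochberg adjusted p under 0.05 over all genes), every one lower in fibrin, and 0 were higher. Of all genes, 5.19% were called lower and 5.35% higher. The 3 fibrin control arrays lay wholly below the 3 collagen control arrays for 61 of the 68 genes (15.0% of all genes do). In limma 55 of the 68 had an unadjusted p under 0.05, as did 3409 of all 14324 genes. The median of all genes was -0.01, and the 1371 other genes of those brightest 10% had a median of 0.02 with 149 called higher and 90 lower. The number of calls depends on the array scale and on each array compared. With every array centred on its own median the difference stayed below 0 for 67 genes, with a median of -0.16 (Rps3 turned to 0.01). Then 7 passed, while 1691 of all genes did, with an all-gene median of 0.05. Leaving out 1 array gave 11, 9 or 12 calls without collagen control replicate 1, 2 or 3 (1298, 1076 or 1128 over all genes). Without fibrin control replicate 1, 2 or 3 there were 6, 8 or 16 calls (1071, 1121 or 1266 over all genes).

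**Figure D2:**
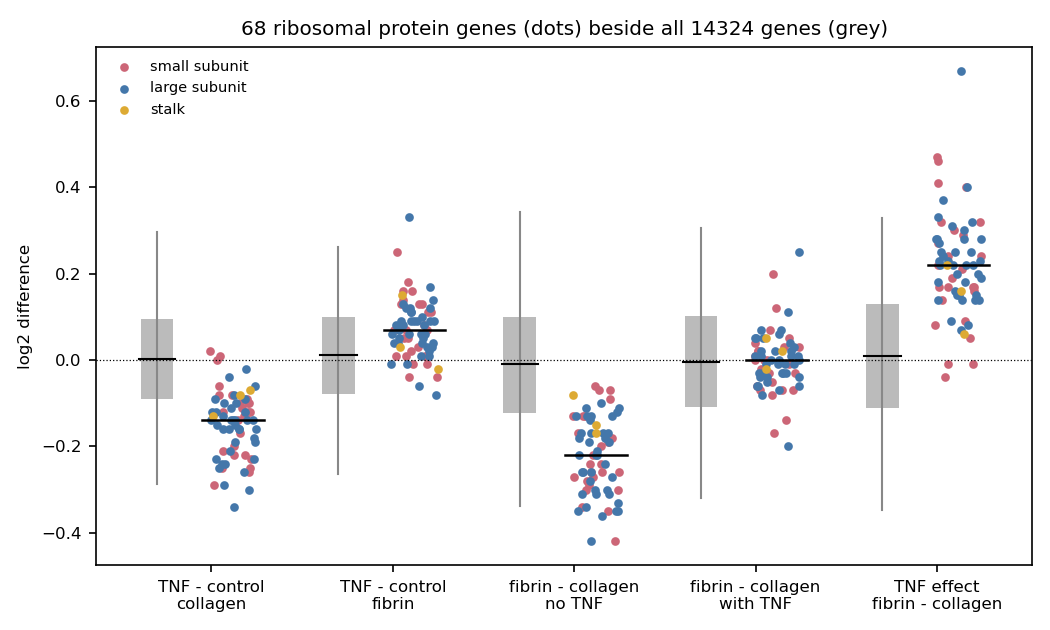
Log2 differences of the 68 ribosomal protein genes (dots, coloured by subunit, black bar at their median) in the 5 comparisons, beside all 14324 genes in grey (bar from the 25th to the 75th percentile, line from the 5th to the 95th, black tick at the median). The dots lie wholly below 0 for fibrin minus collagen without TNF (median -0.22), mostly below for TNF in collagen (median -0.14), and around 0 for fibrin minus collagen with TNF.

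Rps13 encodes a protein of the small subunit. It read 10.05, 9.98 and 9.87 (log2) on the collagen control arrays and 9.63, 9.55 and 9.66 on the fibrin control arrays. The collagen values were all higher, and Rps13 fell in fibrin by 0.35 ± 0.07 (SE; adjusted p = 0.00446), to 78.3% of its collagen level.

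Rpl29, of the large subunit, read 12.19, 12.12 and 12.07 in collagen and 11.75, 11.69 and 11.88 in fibrin. Again no arrays overlapped, and the log2 difference was -0.35 ± 0.07 (adjusted p = 0.00686). Rpl35a, mutated in some patients with Diamond-Blackfan anaemia, an inherited failure of red cell production, read 11.03, 10.93 and 10.90 against 10.58, 10.61 and 10.70. The difference of Rpl35a was -0.33 ± 0.07 (adjusted p = 0.00771) with no overlap. These 3 genes, Rps13, Rpl29 and Rpl35a, passed the threshold under every one of the alternatives run.

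Rpl39 encodes a very small protein that lines the tunnel through which the new peptide leaves the ribosome. It read 11.58, 11.36 and 11.40 in collagen control and 11.11, 10.95 and 11.01 in fibrin control. Its groups did not overlap, and its difference of -0.42 ± 0.11 (adjusted p = 0.0333), to 74.7% of the collagen level, was the largest among the genes that passed. Rps15a, of the small subunit, had an equal difference of -0.42 ± 0.13 that did not pass (adjusted p = 0.0515), although its arrays (10.59, 10.64 and 10.49 against 10.12, 10.15 and 10.18) were also apart. Its SE is pooled over the 4 groups, and in fibrin TNF Rps15a read 10.09, 10.33 and 10.77.

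Rpl36 read 10.50, 10.56 and 10.64 in collagen control and 10.05, 10.26 and 10.32 in fibrin control, a difference of -0.36 ± 0.08 (adjusted p = 0.0167). Rpl10a read 11.68, 11.70 and 11.67 against 11.21, 11.27 and 11.49, a difference of -0.35 ± 0.08 (adjusted p = 0.0172). In both genes fibrin control varied more than collagen control, yet every fibrin value was below every collagen value. Rpl27a and Rps15 fell by 0.34 ± 0.09 each (adjusted p = 0.0349 and 0.0316).

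At the other end, Rps3, a small subunit protein at the entry of the mRNA channel, read 13.44, 13.39 and 13.44 in collagen control and 13.40, 13.38 and 13.32 in fibrin control. The arrays overlapped and the difference was -0.06 ± 0.06 (adjusted p = 0.609). Rps6, the ribosomal target of S6 kinase, read 13.24, 13.21 and 13.25 against 13.19, 13.13 and 13.18. Its arrays did not overlap, but its difference was only -0.07 ± 0.06 (adjusted p = 0.522). Rps9 had -0.07 ± 0.07 (adjusted p = 0.611) with overlapping arrays.

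**Figure D3:**
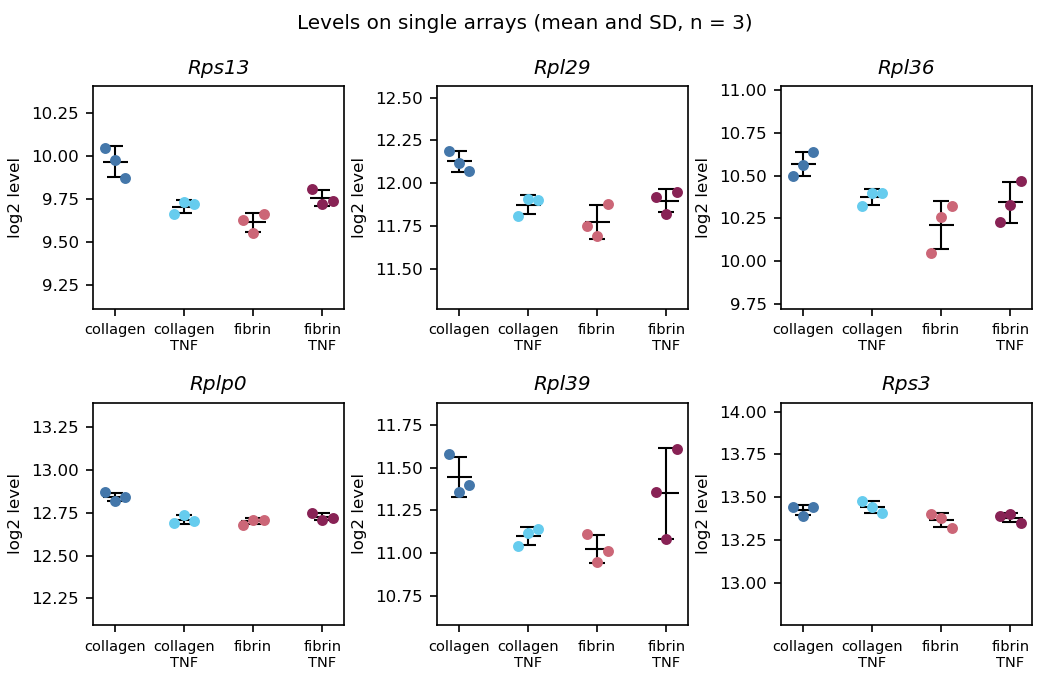
Log2 levels of 6 ribosomal protein genes on each of the 12 arrays (dots, coloured by group), with the mean and SD of each group of 3; every panel spans the same log2 range. Rps13, Rpl29, Rpl36 and Rpl39 were lower in fibrin control than in collagen control, the difference of Rplp0 (-0.15) did not pass the threshold, and Rps3 was near level; Rpl39 spread widely in fibrin TNF.

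Both subunits took part in the difference between untreated matrices. In the small subunit 8 of 26 genes were called lower (Rps7, Rps10, Rps12, Rps13, Rps15, Rps18, Rps26 and Rps29), with a median of -0.24. In the large subunit 18 of 39 were called lower, with a median of -0.22. The share of all genes called lower was 5.19%. The stalk, which recruits the translation factors, had a median of -0.15 and 0 of 3 called: Rplp0, its anchor and a common reference gene, had -0.15 ± 0.06 (adjusted p = 0.124), Rplp1 -0.08 ± 0.07 (adjusted p = 0.505) and Rplp2 -0.17 ± 0.06 (adjusted p = 0.135). Rplp0 read 12.87, 12.82 and 12.84 in collagen control and 12.68, 12.71 and 12.71 in fibrin control, a small gap with no overlap. In limma 2 of the 3 stalk genes had an unadjusted p under 0.05, as did 3409 of all 14324 genes. The difference between subunits was not tested.

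Members with known roles outside or late in the ribosome followed the same direction. Of the pair that binds 5S ribosomal RNA and can restrain the p53 regulator Mdm2, Rpl11 passed (-0.18 ± 0.05, adjusted p = 0.0482) and Rpl5 did not (-0.11 ± 0.09, adjusted p = 0.50). Of 6 proteins at the exit of the peptide tunnel, 2 passed (Rpl35 and Rpl39), with a median of -0.21. Among all genes 5.19% were called lower. Among genes used as references in expression studies, Rpl32 fell by 0.26 ± 0.06 (adjusted p = 0.0119) and Rps18 by 0.28 ± 0.08 (adjusted p = 0.0405), while Rpl13a had -0.13 ± 0.06 (adjusted p = 0.190). Rps19, the gene most often mutated in Diamond-Blackfan anaemia, had -0.26 ± 0.08 (adjusted p = 0.0664), and Rps26, at the mRNA exit, passed narrowly (-0.19 ± 0.06, adjusted p = 0.0499). Rpsa, which also serves as a laminin receptor, had -0.24 ± 0.10 (adjusted p = 0.143). Rps4x, encoded on the X chromosome, and Rpl38, needed for translation of some Hox mRNAs, each had -0.13 ± 0.06 (adjusted p = 0.198 and 0.214). Rpl10, which joins the large subunit late, had -0.10 ± 0.07 (adjusted p = 0.425), and Rpl22 had -0.31 ± 0.11 (adjusted p = 0.0941).

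The size of the difference varied with the signal of the probe set. Across the 68 genes, mean level and fibrin minus collagen difference gave Pearson r = 0.58 and Spearman rho = 0.73, a description over genes that share the same 12 arrays. The median difference was -0.31 for the 13 genes with means under 11 (5 called) and -0.29 for the 16 from 11 to 12 (10 called). It was -0.17 for the 39 at 12 or more (11 called). Of all genes 5.19% were called lower, as were 90 of the 1371 other genes of the brightest 10%. Among the 53 genes with more than 1 probe set, those with a wide gap in signal mostly showed the same order. Smaller gaps gave either order. Rps10 had -0.30 at a mean of 11.05 and -0.24 at 10.45, and Rpl27 -0.13 at 11.12 and -0.19 at 10.0. The dimmest probe sets of Rpl4 (5.67), Rpl13 (5.72) and Rpl41 (4.35) lay below the lowest array median (5.89). Of 12 genes whose brightest and dimmest probe sets were 2 or more log2 units apart, the dimmest had the more negative difference in 11; the exception was Rpl13, whose dim probe set at 5.72 had 0.07. For Rps3 the probe set at 13.4 had -0.06 and the one at 7.97 had -0.35; for Rps9 the one at 12 had -0.07 and the one at 8.27 had -0.44. Whether signal near the top of the range narrows these differences was not tested. Over all 248 probe sets of the family, 247 had a difference below 0, and 88 were called lower when every probe set of the array was tested. In that test 17 of the 68 probe sets standing for these genes were called. Of the 14324 standing for all genes, 1263 were called in either direction. Probe sets of 1 gene are no separate evidence. A gene had up to 21, and in the 53 genes with more than 1 their differences had a median spread of 0.05.

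**Figure D4:**
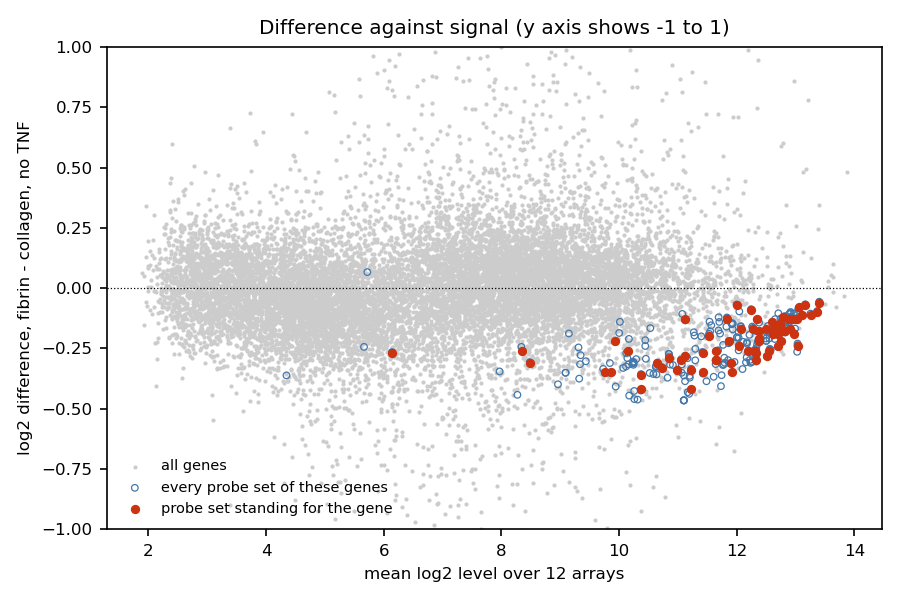
Log2 difference of fibrin minus collagen without TNF against mean log2 level over 12 arrays: all genes in grey, every probe set of the ribosomal protein genes as open blue circles, and the probe set standing for each gene in red; genes beyond 1 in either direction are not drawn. Red points lie below 0 throughout and come closer to 0 at high signal, with medians of -0.31, -0.29 and -0.17 in 3 rising ranges of level.

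Some marker mRNAs of several cell types also differed between matrices. In the untreated comparison 5.19% of all genes were called lower and 5.35% higher. Smooth muscle markers were called lower in fibrin control for 5 of 9 genes, with 8 of the 9 below 0 and a median of -0.46. Their summed linear level was 2740 to 3550 in fibrin control and 3640 to 4590 in collagen control. It was 2870 to 3240 in collagen TNF and 2570 to 2940 in fibrin TNF. Macrophage markers were called lower for 9 of 16 genes (Cd163 -2.19 and Mrc1 -1.65 among them) and higher for 0. Of the 16, 12 lay below 0 and 4 above, with a median of -0.44 and a range from -2.19 to 0.52. Their sums were 8750 to 10500 in fibrin control and 11700 to 13100 in collagen control. They were 12500 to 15300 in collagen TNF and 9590 to 10100 in fibrin TNF. Lymphocyte markers, with mean levels from 3.03 to 7.81, summed to 385 to 417 against 548 to 656 in the controls of fibrin and collagen. Their median was -0.08, and 1 of 12 was called lower (Cd4 -1.17, which rat macrophages also carry). Neutrophil markers summed to 490 to 584 against 369 to 465, with 2 of 10 called higher. Endothelial markers had 1 of 10 called lower, and fibroblast markers 1 of 11 higher and 3 lower. The part of these shifts in the ribosomal result was not tested.

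The next comparison set TNF against control in collagen. The difference was below 0 for 65 of 68 ribosomal genes, with a median of -0.14 (-9.19%) and a range from -0.34 to 0.02. Only 4 passed the threshold, all lower with TNF, and 0 were higher; of all genes 3.10% were called lower and 3.27% higher. The collagen TNF arrays lay wholly below the collagen controls for 49 genes (13.8% of all genes do). In limma 30 ribosomal genes had an unadjusted p under 0.05, as did 2664 of all 14324 genes. The all-gene median was 0.00 and that of the other bright genes -0.182% on the linear scale. This comparison and that of the untreated matrices use the same 3 collagen control arrays, so their likeness is no separate evidence.

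Rpl15, of the large subunit, read 8.71, 8.73 and 8.75 in collagen control and 8.36, 8.35 and 8.57 in collagen TNF. All TNF arrays were below all control arrays, and Rpl15 fell by 0.30 ± 0.08 (adjusted p = 0.0314). Rps13 went to 9.66, 9.73 and 9.72 with TNF (-0.26 ± 0.07, adjusted p = 0.0371), Rpl35a to 10.64, 10.73 and 10.72 (-0.26 ± 0.07, adjusted p = 0.0393), and Rps12 from 11.91, 11.81 and 11.80 to 11.59, 11.54 and 11.62 (-0.25 ± 0.07, adjusted p = 0.0480). These 4 genes also passed in the comparison of untreated matrices, with the same controls. Rpl39 had the largest difference, -0.34 ± 0.11, and did not pass (adjusted p = 0.108). The smallest were those of Rps16 (0.00 ± 0.11), Rps9 (0.01 ± 0.07) and Rps3 (0.02 ± 0.06). When arrays of 1 replicate number were paired inside a matrix (a replicate block in the fit), 1 ribosomal gene passed, Rpl15. Over all genes 1018 passed in that fit. Leaving out an array left 0 calls without collagen control replicate 1 or 2 or collagen TNF replicate 1 or 2. There was 1 call without collagen control replicate 3 or collagen TNF replicate 3, and 2 without fibrin control replicate 2. Over all genes, leaving out 1 array gave 568 to 940 calls. Smooth muscle markers were called lower with TNF for 4 of 9 genes (median -0.43). Macrophage markers were called higher for 3 of 16 and lower for 0, while 10 of the 16 lay below 0, with a median of -0.11.

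In fibrin, TNF left 0 of 68 ribosomal genes past the limma threshold in either direction (1.65% of all genes were called higher and 1.47% lower). An unadjusted p under 0.05 was found for 3 ribosomal genes and for 2192 of all 14324 genes. The difference was above 0 for 59 genes, with a median of 0.07 (4.88%) and a range from -0.08 to 0.33; it was above 0 for 52 genes under quantile normalization and 51 after centring. The fibrin TNF arrays lay wholly above the fibrin controls for 12 genes (10.2% of all genes do). Rpl39 had the largest difference. It read 11.11, 10.95 and 11.01 without TNF and 11.36, 11.08 and 11.61 with it, so the groups overlapped (0.33 ± 0.11, adjusted p = 0.176); without fibrin TNF replicate 2 it was the 1 gene that passed. Rps15a had 0.25 ± 0.13 (adjusted p = 0.387) and Rps24 0.18 ± 0.10 (adjusted p = 0.441). Rpsa, at 12.63, 12.59 and 12.67 without TNF, read 12.80, 12.72 and 12.34 with it, so that fibrin TNF array 3 alone took its difference to -0.01 ± 0.10. Rps27, the dimmest member, read 6.49, 6.0 and 5.73 with TNF against 5.92, 6.19 and 6.08, and its SD there was 0.38.

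With TNF in both matrices, fibrin and collagen differed in 0 of 68 ribosomal genes by limma (4.55% of all genes were called higher and 3.64% lower). An unadjusted p under 0.05 was found for 1 ribosomal gene, Rpl10a, and for 3159 of all 14324 genes. The differences were below 0 for 36 genes and above for 32, with a median of -0.133% on the linear scale and a range from -0.20 to 0.25 (log2). After centring 18 were below 0. Rpl10a read 11.42, 11.44 and 11.50 in collagen TNF and 11.25, 11.37 and 11.12 in fibrin TNF, without overlap (-0.20 ± 0.08, adjusted p = 0.181). Rps24 read 8.06, 8.31 and 8.31 against 8.36, 8.34 and 8.59, also without overlap but in the other direction (0.20 ± 0.10, adjusted p = 0.253). The matrix comparisons without and with TNF were not set against each other by a test of the whole family. With TNF, the median SE of a gene was 0.07.

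Whether TNF acted differently in the 2 matrices was tested as a difference of differences, fibrin minus collagen. It was above 0 for 65 of 68 ribosomal genes, with a median of 0.22 and a range from -0.04 to 0.67, and all 39 large subunit genes were above 0; Rps3, Rps9 and Rps16 were below. By limma 0 ribosomal genes passed (0.370% of all genes were called higher and 0.866% lower). An unadjusted p under 0.05 was found for 32 of them and for 1877 of all 14324 genes. The largest value was that of Rpl39, 0.67 ± 0.16 (adjusted p = 0.0742). Rps24 followed with 0.47 ± 0.14 (adjusted p = 0.149), Rps15a with 0.46 ± 0.18 (adjusted p = 0.287) and Rps25 with 0.41 ± 0.14 (adjusted p = 0.190), while Rps13 had 0.40 ± 0.10 (adjusted p = 0.0671). Rps24 read 8.54, 8.59 and 8.42 in collagen control, 8.06, 8.31 and 8.31 in collagen TNF, 8.37, 8.12 and 8.27 in fibrin control, and 8.36, 8.34 and 8.59 in fibrin TNF. In words, Rps24 was high in collagen control, lower in collagen TNF and fibrin control, and between them in fibrin TNF. The 4 groups enter this measure with the collagen controls among them, so it holds no more independent information than the comparisons above. Leaving out fibrin TNF replicate 2 gave 1 call, Rpl39.

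The ribosomal genes moved together from array to array. The correlation of a gene with the mean of the other 67 over the 12 arrays, which share group differences and array scale, had a median of 0.84 and was above 0.8 for 44 genes; the highest was 0.97 (Rpl13) and the lowest were 0.22 (Rps3), 0.32 (Rps27), 0.40 (Rplp1), 0.46 (Rps9) and 0.48 (Rps16). The low ones include genes with very bright probe sets and the dimmest one. Among genes outside the family, the pattern most like the family's mean, by Pearson r over the 12 arrays, was that of Cox7a2l, a factor of respiratory chain assembly (0.962), followed by Eif3k (0.936), Eif2s3 (0.928), Smarcd3 (0.927), Nucb2 (0.915), Eif3l (0.910), Uqcrh (0.907), Cd200r1 (0.905), Fcnb (0.904) and Eef1d (0.901). Of these 10, Eif3k, Eif3l and Eif2s3 encode initiation factor subunits and Eef1d an elongation factor subunit. Cox7a2l read 11.28, 11.29 and 11.24 in collagen control, 10.83, 10.94 and 11.08 in collagen TNF, 10.75, 10.87 and 10.93 in fibrin control, and 10.91, 10.93 and 11.14 in fibrin TNF. Its collagen control arrays were the highest of the 12. For 55 of the 68 ribosomal genes the single highest array was a collagen control array. Cox7a2l was picked for its likeness to the family's pattern, so its order is no separate evidence.

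The genes were also divided by the length of the pyrimidine run, a description with no test. For fibrin against collagen without TNF, the 38 genes with a run of 8 or more in the start window had a median of -0.24 (16 called), the 20 with shorter runs -0.20 (7 called), and the 10 without a promoter entry -0.18 (3 called). The mean levels of these sets had medians of 12.12, 12.27 and 12.58. In the same comparison 5.19% of all genes were called lower. Rpl36, whose longest run was 3 pyrimidines, fell by 0.36, and Rpl10a, whose longest was 11, by 0.35, so genes of either kind were among the larger differences.

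Other genes of the translation machinery were compared in the same fit. Fibrin against collagen without TNF called 5.19% of all genes lower and 5.35% higher. Of 16 further genes whose mRNAs are of the TOP kind, 15 were below 0 in fibrin against collagen without TNF, with a median of -0.17; 3 passed, all lower (Eef1d -0.31 ± 0.07, adjusted p = 0.00934; Eef1b2 -0.31 ± 0.08, adjusted p = 0.0201; Eif3e -0.32 ± 0.08, adjusted p = 0.0271). That list shares 5 genes with the elongation factors, 3 with the initiation factors, 4 with the relatives outside the symbol rule and 1 with the assembly genes. Eef1d, a subunit of the exchange factor that reloads elongation factor 1A, read 10.20, 10.24 and 10.31 in collagen control and 9.95, 9.89 and 9.97 in fibrin control, without overlap. Eef1a1, elongation factor 1A itself, had -0.08 (adjusted p = 0.439), and Eef2, which moves the ribosome along the mRNA, -0.17 (adjusted p = 0.121). Of 9 elongation genes 3 were called lower, among them Eef2k, the kinase that inhibits Eef2 (-0.51 ± 0.10, adjusted p = 0.00452), which is no part of the translating machinery. Of 41 initiation and termination factors 5 were lower (Eif2a -0.47, Eif2s3 -0.36, Eif3e -0.32, Eif3k -0.28, Eif3l -0.24) and 2 higher (Eif6 0.29, Eif2b4 0.23), with a median of -0.157% on the linear scale. The 6 relatives outside the symbol rule, Fau, Rack1 and Rpl22l1 among them and 4 of them also on the TOP list, were all below 0 with a median of -0.18 and 0 called; the paralog Rpl22l1 had -0.39 ± 0.13 (adjusted p = 0.0737).

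Genes for making ribosomes lay mostly above 0. Of 99 genes of ribosome assembly and ribosomal RNA synthesis, 14 were called higher in fibrin control than in collagen control and 2 lower. The 99 genes had a median of 0.13, with 79 above 0. Of all genes 5.35% were called higher and 5.19% lower. Riok3, an atypical kinase linked to small subunit maturation, rose by 0.78 ± 0.11 (adjusted p = 0.000358), Rcl1, of 18S rRNA processing, by 0.49 ± 0.09 (adjusted p = 0.00224), Rpf1 by 0.36 ± 0.08 (adjusted p = 0.00956), and Polr1a, the largest subunit of RNA polymerase I, by 0.35 ± 0.07 (adjusted p = 0.00852). Riok3 read 10.07, 9.96 and 9.81 in collagen control, 10.64, 10.61 and 10.65 in collagen TNF, 10.92, 10.72 and 10.54 in fibrin control, and 11.67, 11.45 and 11.76 in fibrin TNF. It was lowest in collagen control and highest in fibrin TNF, with no overlap at either end. The genes lower in fibrin were Nob1, the nuclease that finishes 18S rRNA (-0.39 ± 0.10, adjusted p = 0.0186), and Polr1d (-0.29 ± 0.07, adjusted p = 0.0120). With TNF in both matrices 12 assembly genes were higher in fibrin and 0 lower (median 0.16), against 4.55% and 3.64% of all genes. Quantile normalization gave 11 higher and 2 lower without TNF (1494 calls over all genes). Centring gave 26 higher and 2 lower (1691 over all genes). For TNF in collagen 3 of the 99 assembly genes were called higher (Rcl1 0.68, Riok3 0.69, Pelp1 0.31) and 1 lower (Polr1d -0.32). Of all genes 3.27% were called higher and 3.10% lower there, so the assembly counts do not exceed the general share. Nucleolar Npm1 (-0.21, adjusted p = 0.0900) and Ncl (-0.07) did not pass in fibrin against collagen without TNF.

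The 67 mitochondrial ribosomal protein genes lay on both sides of 0. In fibrin against collagen without TNF 2 were higher (Mrpl47 0.44, Mrpl49 0.31) and 3 lower (Mrpl34, Mrpl44 and Mrps33, -0.30 each). Of all genes 5.35% were called higher and 5.19% lower. The mitochondrial median was 0.04, or 0.00 under quantile normalization and 0.10 after centring. For TNF in collagen 0 passed, with a median of -0.02. In limma 12 of the 67 had an unadjusted p under 0.05, near the share of all genes (2664 of 14324).

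Among 37 genes of growth signalling to translation, the median was -0.01 in fibrin control against collagen control. Called higher were 3 (Ddit4, Mlst8 and Max) and lower 3 (Pdcd4, Mknk2 and Mxd4), against 5.35% and 5.19% of all genes. In limma 8 of the 37 had an unadjusted p under 0.05, near the share of all genes (3409 of 14324). Ddit4, a stress-induced inhibitor of mTORC1, read 8.33, 9.41 and 8.74 in collagen control, 9.90, 10.42 and 10.22 in collagen TNF, 10.20, 10.45 and 10.24 in fibrin control, and 10.29, 10.35 and 9.76 in fibrin TNF. The collagen control arrays were the 3 lowest, whereas the ribosomal genes as a set were at their highest there. Ddit4 rose by 1.47 ± 0.24 in fibrin against collagen without TNF (adjusted p = 0.00123) and by 1.36 ± 0.24 with TNF in collagen (adjusted p = 0.00362). Pdcd4, an inhibitor of the initiation helicase that S6 kinase marks for destruction, fell by 0.57 ± 0.11 (adjusted p = 0.00510) and 0.59 ± 0.11 (adjusted p = 0.00575) in these comparisons, which share the collagen controls. Mtor itself had 0.13 (adjusted p = 0.281), Eif4ebp1 -0.09 and Myc 0.24 (adjusted p = 0.230) in fibrin against collagen without TNF. mRNA levels of these genes do not report kinase activity.

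**Figure D5:**
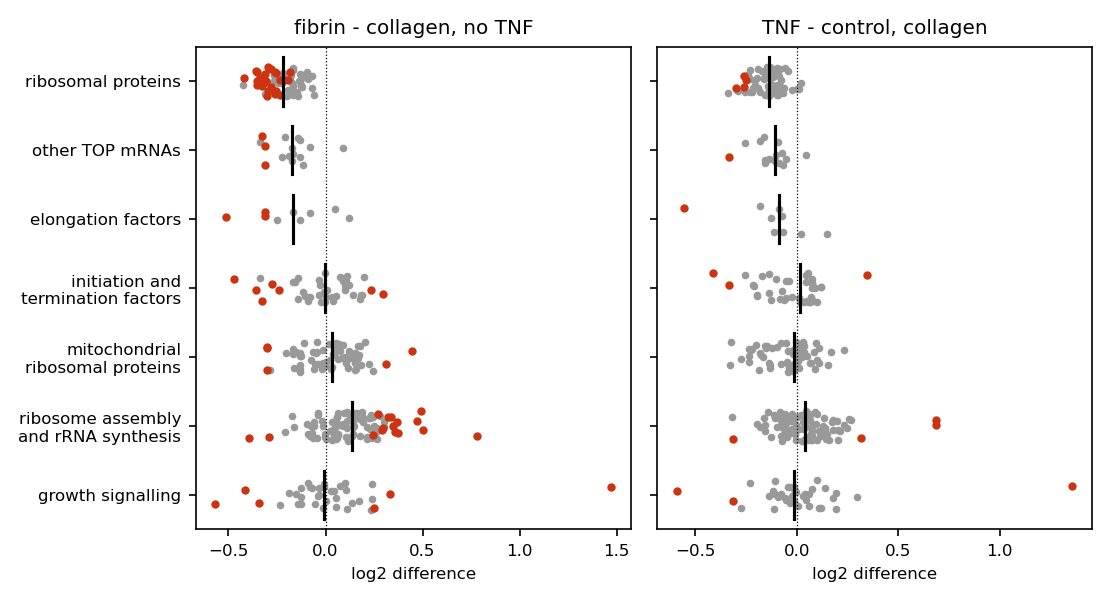
Log2 differences of single genes by list for fibrin minus collagen without TNF (left) and TNF minus control in collagen (right); red dots passed the threshold, grey dots did not, and black bars are list medians. On the left the ribosomal proteins and other TOP mRNAs lie below 0 (medians -0.22 and -0.17), ribosome assembly above 0 (0.13) and mitochondrial ribosomal proteins near 0 (0.04).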

How the data were processed

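RNA of 12 samples of rat aortic ring cultures (4 groups of 3) was labelled, 200 ng per sample, and measured on Affymetrix whole-transcript arrays, as the labels' protocols say. The deposited values are log2 levels, read as such from their range; how the authors summarised, background-corrected and normalized them is a point not given in the sources used here. limma is named, with no version, in the submitters' processing notes. Groups and replicate numbers come from the sample titles, which call the replicates biological; the labels do not say that each was another animal, and p-values therefore reflect only the spread between these samples. The tissue label was not used, since it names collagen in all 4 groups. No batch or scan date is given in the labels used here, and precision is limited by the number of arrays.

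The annotation names 1 gene for 15097 of 27342 probe sets, several for 323 and none here for 11922; the probe set of highest mean stood for each of 14324 genes. Of the 68 members, 66 had a gene identifier in the RefSeq table, and 0 symbols differed. Two-sided tests came from limma 3.58.1 (R 4.3.3): lmFit with a mean for each group on all 12 arrays, then eBayes. The p-values of a comparison were adjusted over all genes by Benjamini-Hochberg, with a threshold of 0.05; the fit was tested on simulated data. Errors of differences are standard errors of this fit. Tables were made with Python 3.11.15 and pandas 2.3.3. Members, gene lists and tests were chosen with earlier results of these data known.

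Named genes were, in each comparison, up to 8 members of largest difference among those called and 3 of smallest difference, a set of members fixed by name, and from each other list at most 5 called genes, by adjusted p, and 3 more; Rps24, Rps25, Rps15a, Rps16 and Rps27, and the largest uncalled values, were named after their values were seen. Listed genes not analysed here include Rps27a and Larp1.

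Arrays of one replicate number deviated together within a matrix (in collagen at correlations of 0.13, 0.14, 0.14; in fibrin at 0.25, 0.14, 0.16), which counts as pairing there; across matrices they correlated at 0.23, 0.08 and 0.13 in the controls and at 0.05, 0.03 and 0.14 with TNF. Start windows were read from RefSeq promoters of assembly GRCr8. Alternatives were quantile normalization, centring, filters on dim genes, only the groups compared, another prior, array weights, other uses of probe sets, replicate blocks and leaving out each array.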

Additional observations from a re-analysis of the deposited data

Results flagged for a closer look

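The TNF effect on Ddit4, an inhibitor of mTORC1 in the growth signalling list, differed between the matrices by -1.52 ± 0.33 on the log2 scale (fibrin minus collagen, limma interaction, adjusted p = 0.0488). In collagen the 3 TNF arrays (9.90, 10.42 and 10.22) were all above the controls (8.33, 9.41 and 8.74). In fibrin TNF (10.29, 10.35 and 9.76) and control (10.20, 10.45 and 10.24) overlapped. The adjusted p ranged from 0.0102 to 0.123 over the alternatives, and the call was lost without collagen control replicate 1 (0.0709) or 3 (0.111), without any 1 of the collagen TNF (0.0556 to 0.121) or fibrin control (0.0787 to 0.123) replicates, and without fibrin TNF replicate 1 (0.0834) or 3 (0.116). It was also lost under quantile normalization (0.0508), with the trended and robust prior (0.0835), over all probe sets (0.0842) and after centring on the other bright genes (0.0583).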

How the results depend on the processing

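The direction of the family's median was the same under every alternative run for TNF in collagen, for fibrin against collagen without TNF, for TNF in fibrin and for the difference of TNF effects. The counts of calls varied. For fibrin against collagen without TNF, 26 calls became 17 under quantile normalization, 7 after centring and 17 over all probe sets. They became 42 with only the brighter 50% of genes and 48 with a trended and robust prior. Over all genes, 767 higher and 743 lower calls became 1494, 1691, 1263, 1534 (of 7162 genes) and 1817 in that order. For TNF in collagen, 4 calls became 7 without the dimmest genes, 9 with the brighter 50% and 15 with the other prior. They became 1 with only the groups compared (Rpl39) and 0 over all probe sets. Over all genes, 468 higher and 444 lower calls became 1153 (of 9549), 1053 (of 7162), 1178, 826 and 696 in that order. The replicate block within each matrix gave 1 call for TNF in collagen (1018 over all genes). The replicate block over all arrays gave 3 there (1128 over all genes), and 29 for the untreated matrices (1824 over all genes). The block over all arrays left the 0 calls of the other 3 comparisons at 0, and the block within each matrix, not run for comparisons between matrices, those of TNF in fibrin and of the difference of TNF effects. For the difference of TNF effects, 0 calls became 2 without the dimmest genes, 3 with the brighter 50% and 7 with the other prior. Over all genes, 53 higher and 124 lower calls became 294 (of 9549), 299 (of 7162) and 339. Leaving out 1 array gave 0 to 5 calls for TNF in collagen, 0 to 1 in fibrin and 6 to 31 for the untreated matrices. It gave 0 to 1 for the matrices with TNF and 0 to 1 for the difference. Over all genes these ranges were 568 to 940, 237 to 539, 1071 to 1573, 727 to 1196 and 103 to 246. Centring on the other bright genes, chosen after seeing the data, gave 6 and 34 calls for TNF in collagen and for the untreated matrices. Over all genes that centring gave 997 and 1627 calls. Of the values of single named genes under alternatives, 1537 stayed on their side of the threshold, 253 lost the call, 19 gained it and 1 turned its sign (Rps3, untreated matrices, 0.01 after centring). Causes were not tested. The 3 arrays per group limit every call.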
